A study of Mus musculus with 35 samples.

Results

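The genes described are 6 members of the Meis and Pbx families of homeodomain transcription factors, namely Meis1, Meis2, Meis3, Pbx2, Pbx3 and Pbx4, taken by gene symbol from the 30723 symbols in the deposited tables. Their RNA was measured in 35 libraries from 6 tissues of wild-type CD1 mouse embryos at embryonic day 11.5, with no treatment. The tissues were the frontonasal (FNP), mandibular (MNP) and maxillary (MXP) prominences of the face, the brain in its dorsal (dB) and ventral (vB) parts, and limb, with 6 libraries each and 5 for MXP. For comparison, FNP, MNP and MXP were grouped as facial tissue (17 libraries) and dB and vB as neural tissue (12 libraries), beside limb (6 libraries). The sample labels call dB and vB dorsal and ventral neural tube. Tissue of several embryos went into each library, so a value is a mean over animals and over all cell types dissected. Nothing further in the labels says what separated 1 replicate from another, and the p-values measure the spread between these pooled samples. The study asked which genes differ between any pair of these tissues, and the same question is put here to the Meis and Pbx genes.

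Meis and Pbx proteins belong to the TALE class of homeodomain factors, named for extra amino acids in the loop between the first helices of the homeodomain. Pbx proteins bind DNA together with Meis proteins and with Hox proteins, and Meis proteins hold Pbx in the nucleus. In the limb bud, Meis1 and Meis2 are known as marks of the proximal domain, which later forms the upper arm and thigh. In the embryonic face, Pbx genes are known to be needed for fusion of the upper lip, and Meis2 for the crest-derived skeleton of the head. In the brain, Meis2 is known in the developing striatum and midbrain, and Meis3 in the hindbrain.

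The sequences below show how near the members are to each other where they touch DNA, which bears on how far reads can be told apart between them. Each is the coding strand from the loop to the recognition helix of the homeodomain, 90 bases in 30 codons, read from GENCODE transcripts of GRCm38 (the assembly that the files call mm10). Capitals mark the codons of the loop motif at the start and those of the core of the recognition helix at the end. In every member the stretch is coding sequence of 2 exons, and the coordinates are its outer ends.
Meis1, chr11:18885636-18905762, minus strand: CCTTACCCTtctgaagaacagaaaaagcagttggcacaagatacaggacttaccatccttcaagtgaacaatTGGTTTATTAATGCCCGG
Meis2, chr2:115868788-115921745, minus strand: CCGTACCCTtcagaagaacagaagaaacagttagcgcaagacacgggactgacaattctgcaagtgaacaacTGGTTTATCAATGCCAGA
Meis3, chr7:16183794-16184053, plus strand: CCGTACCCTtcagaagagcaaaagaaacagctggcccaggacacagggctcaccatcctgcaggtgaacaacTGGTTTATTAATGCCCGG
Pbx2, chr17:34594655-34594827, plus strand: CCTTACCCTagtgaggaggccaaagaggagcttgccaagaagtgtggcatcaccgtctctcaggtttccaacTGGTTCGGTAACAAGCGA
Pbx3, chr2:34178316-34204842, minus strand: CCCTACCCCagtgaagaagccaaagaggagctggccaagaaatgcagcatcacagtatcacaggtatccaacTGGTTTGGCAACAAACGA
Pbx4, chr8:69866541-69870055, plus strand: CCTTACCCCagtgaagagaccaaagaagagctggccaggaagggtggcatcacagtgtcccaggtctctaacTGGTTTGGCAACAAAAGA

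Over these 90 bases the 3 pairs of Meis genes shared 82.2 to 83.3% of bases and the 3 pairs of Pbx genes 82.2 to 84.4%, while the 9 pairs of a Meis with a Pbx gene shared at most 60.0%.  No pair of members was identical over the stretch.

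The deposited values are Cufflinks estimates in FPKM, that is, fragments scaled to transcript length and to the number of mapped fragments, so levels can be set beside each other between genes. They were summed over the transcripts of a gene. All 6 members passed the filter for testing (a tissue mean reaching 1 FPKM), each of them with a mean above 1 FPKM in every tissue. Depth is known only through a coverage column, in which 1 FPKM went with 2.70 to 5.51 units of coverage per library. The number of genes at 1 FPKM or more ran from 11742 to 12955 over the libraries. Against the labels, the 6 limb markers summed to 257 to 543 FPKM in limb and to at most 5.89 FPKM in any other library. The 7 neural progenitor markers summed to 558 to 781 FPKM in dB and vB and to at most 139.95 FPKM elsewhere. The library vB replicate 4 stood apart in several members.

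In level the members ran from Pbx2 at the top to Pbx4 at the bottom. Pbx2 was the highest, with 72.7 ± 13.5 FPKM (SD, n = 35), which lay above 92.7% of the 13934 genes tested. Meis2 and Pbx3 followed with 24.7 ± 13.0 and 23.4 ± 7.12 FPKM (SD, n = 35). Meis3 had 14.6 ± 9.57, Meis1 10.9 ± 3.96 and Pbx4 3.15 ± 2.34 FPKM (SD, n = 35). The neighbours Meis2 and Pbx3 lay within each other's spread over libraries, as did Meis3 and Meis1.

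**Figure D1:**
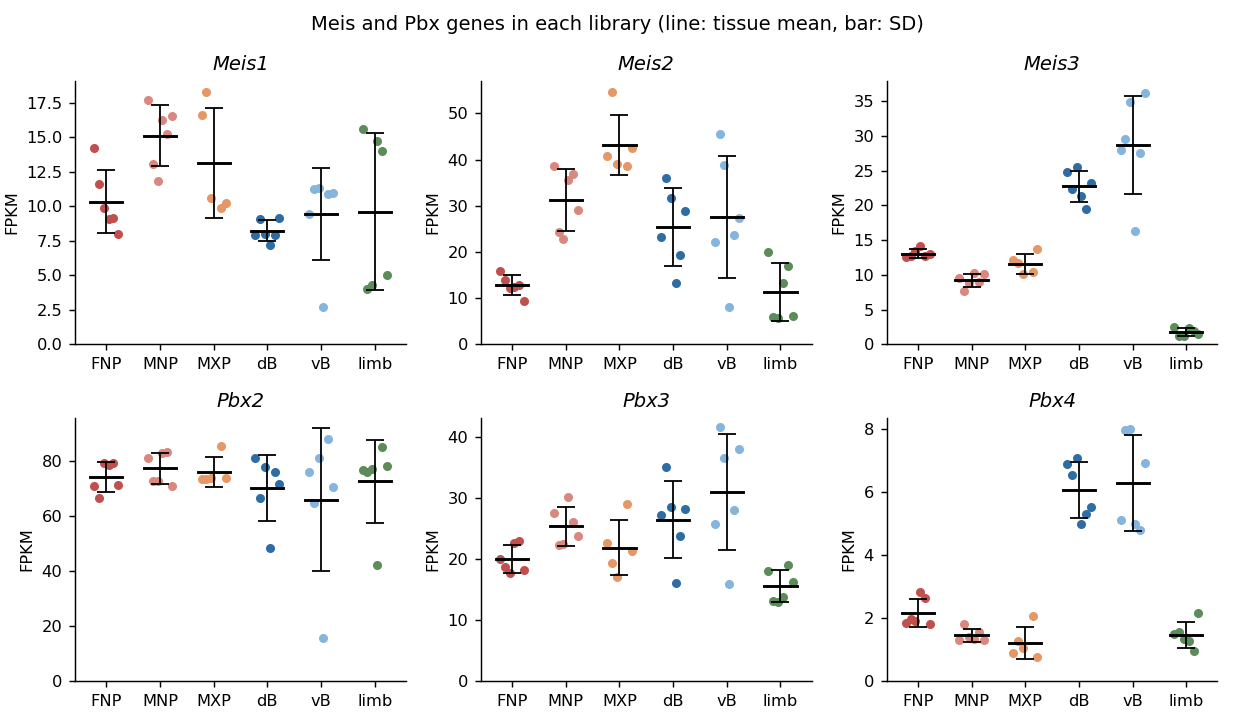
FPKM (linear axis from 0) of each Meis and Pbx gene in every library, by tissue, with points for libraries, a line for the tissue mean and bars for the SD. Meis3 sits at 1.16 to 2.55 FPKM in limb and at 16.3 FPKM or more in dB and vB, Pbx4 is above 4 FPKM only in dB and vB, and Pbx2 is near 70 to 80 FPKM in every tissue, with a few low libraries.

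Tissues were compared with limma on log2(FPKM + 1) over all 13934 genes. A gene was called where the Benjamini-Hochberg adjusted p was under 0.05 and the fold change at least 2. Neural against facial tissue, 2 of the 6 members were higher (Meis3 and Pbx4) and 0 lower, where 6.64% of all genes were called higher, 4.64% lower and 11.3% in either direction. Neural against limb, 3 members were higher (Meis2, Meis3 and Pbx4) and 0 lower, where 8.05% of genes were called higher, 4.36% lower and 12.4% in either direction. Facial against limb, 2 members were higher (Meis2 and Meis3) and 0 lower, where 1.51% of genes were called higher, 1.11% lower and 2.62% in either direction. The median log2 fold change of the 6 members was 0.12, 1.01 and 0.52 in these comparisons, and that of all genes tested was −0.02, −0.01 and 0.02. The 3 comparisons share libraries. Over the 15 pairs of tissues, 23 of 90 comparisons of a member were called, where 7.6% of all gene and pair comparisons were called. They fell on Meis3 (9 pairs), Pbx4 (8) and Meis2 (6). The other 3 members were not called in any pair, and 21.3% of all genes were called in at least 1 pair. For dB against vB 0 members were called, with 1 at an unadjusted p under 0.05 (Meis3), where 1.39% of all genes were called. For MNP against MXP 0 members were called as well, with 1 at an unadjusted p under 0.05 (Meis3), where 1.03% of all genes were called.

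**Figure D2:**
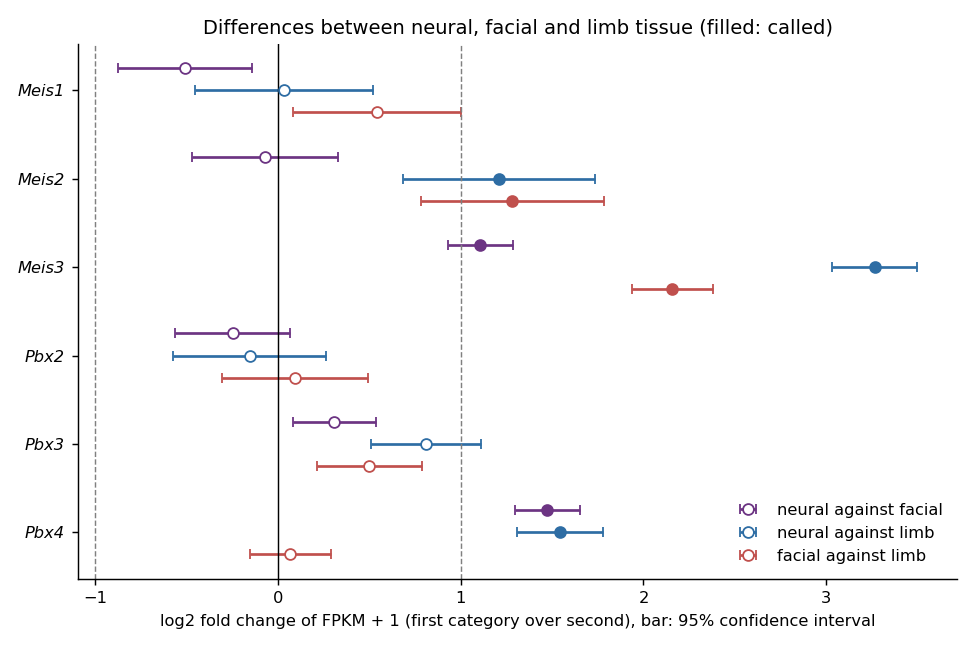
log2 fold change of FPKM + 1 with its 95% confidence interval for each member in the 3 comparisons of neural, facial and limb tissue (dashed lines at a fold of 2, filled points for called differences). The intervals of Meis3 and Pbx3 lie above 0 in all 3 comparisons. Those of Pbx4 do so in both comparisons with neural tissue, and those of Meis2 in both comparisons with limb. The interval of Meis1 lies below 0 for neural against facial tissue and above 0 for facial tissue against limb. The points of Meis1, Pbx2 and Pbx3 are open.

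Meis3 was the member with the widest range between tissues by fold, with tissue means from 1.77 FPKM in limb to 28.7 in vB, while Meis2 spanned more in FPKM, from 11.3 in limb to 43.1 in MXP. In the files it lies at chr7:16175380-16186503 (mm10) with 5 transcripts. In vB it had a lowest value of 16.3, a median of 28.8 and a highest of 36.2 FPKM, and in dB 19.5, 22.8 and 25.5. In FNP these were 12.5, 12.8 and 14.1 FPKM, in MXP (n = 5) 10.1, 11.7 and 13.7, and in MNP 7.65, 9.23 and 10.3. In limb they were 1.16, 1.65 and 2.55 FPKM. Every neural library lay above every facial library and every facial library above every limb library. The share of genes whose libraries did not overlap was 9.86% for neural and facial, 15.5% for neural and limb and 2.58% for facial and limb tissue. On the log2(FPKM + 1) scale, the Meis3 excess of neural over facial tissue was 1.11 (SE 0.09, adjusted p = 7.77e-13 in limma). Against limb, neural tissue was higher by 3.26 (SE 0.12, adjusted p = 1.16e-21) and facial tissue by 2.16 (SE 0.11, adjusted p = 5.75e-17 in limma).

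Within the face, Meis3 means ran in the order FNP, MXP and MNP. FNP exceeded MNP by 0.47 (SE 0.13, adjusted p = 0.0221 in limma), a difference past the adjusted p but under a fold of 2. FNP and MXP differed by 0.17 (95% interval −0.12 to 0.45) and MNP minus MXP was −0.30 (−0.58 to −0.02), neither of them past the adjusted p. Each facial tissue was called higher than limb, by 1.90 to 2.37, where 4.21% (FNP), 2.71% (MNP) and 3.34% (MXP) of all genes were called against limb in either direction. In the facial order the 5 neuronal markers measured ran the same way, with sums of 85.3 to 124 FPKM in FNP, 34.5 to 76.2 in MXP and 10.7 to 28.8 in MNP, and their part in the Meis3 order was not tested. The excess of vB over dB was 0.29 with a 95% interval of 0.02 to 0.56 (adjusted p = 0.262 in limma), which did not pass the threshold. Without vB replicate 4, dB minus vB was −0.44 (adjusted p = 0.00990 in limma), past the adjusted p and under a fold of 2. Without vB replicate 3 or 6 the count of Meis3 pairs called went from 9 to 8, the difference of FNP from vB being under a fold of 2.

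Pbx4, the member expressed at the lowest level, followed neural tissue as well. In the files it lies at chr8:69832704-69872292 (mm10) with 4 transcripts. In dB its lowest, median and highest values were 4.98, 6.02 and 7.05 FPKM, and in vB 4.77, 5.99 and 7.98. Elsewhere the highest single value was 2.83 FPKM, in an FNP library. The neural libraries thus lay above all facial and limb libraries with no overlap. Of all genes tested, 9.86% had no overlap between neural and facial libraries and 15.5% none between neural and limb libraries. The Pbx4 excess of neural tissue was 1.47 over facial tissue (SE 0.09, adjusted p = 6.52e-16) and 1.54 over limb (SE 0.12, adjusted p = 4.02e-13 in limma). Facial tissue and limb differed by 0.07 (95% interval −0.16 to 0.29). At such low levels the pseudocount of 1 shrinks the fold, and with a pseudocount of 0.1 the neural to facial difference was 1.93.

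The facial libraries with the most Pbx4 were also those with the most RNA of neural progenitor markers. FNP replicates 4 and 5 had 2.83 and 2.62 FPKM of Pbx4, and the other FNP libraries 1.81 to 1.97. In the same 2 libraries the 7 neural progenitor markers summed to 139.95 and 104 FPKM, against 16.7 to 32.2 FPKM in the other FNP libraries. MXP replicate 5 had 2.05 FPKM of Pbx4 and a progenitor sum of 37.5 FPKM, the highest MXP values of both. In the 4 other MXP libraries Pbx4 was at 0.76 to 1.25 and the progenitor sum at 13.8 to 26.6 FPKM. Without these 3 libraries, an alternative chosen after their values were seen, the neural to facial difference of Pbx4 was 1.56 and that of Meis3 1.10, and 23 pair comparisons were called. The part of neural cells in the facial levels of Pbx4 was not tested. In such bulk samples fewer cells of a type and less RNA per cell cannot be told apart.

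Within vB, every member except Pbx2 was higher in the 3 libraries with the most RNA of neuronal markers, for Meis1 by a narrow margin. The share of all genes that split these libraries the same way was not counted, so the split is not read as particular to the members. Pbx4 was at 7.95, 7.98 and 6.89 FPKM in vB replicates 2, 3 and 6 and at 5.09, 4.96 and 4.77 FPKM in replicates 1, 4 and 5. The 5 neuronal markers measured (Tubb3, Dcx, Elavl3, Elavl4 and Stmn2) summed to 1168, 1030 and 1336 FPKM in the former 3 libraries and to 564, 531 and 614 FPKM in the latter. Pbx3 was at 41.7, 36.5 and 38.0 FPKM in the former and at 25.7, 15.9 and 28.0 in the latter. Meis2 had 45.5, 38.8 and 27.3 FPKM against 22.1, 8.16 and 23.6. Meis3 had 29.5, 34.9 and 36.2 FPKM against 28.0, 16.3 and 27.5. Meis1 had 11.25, 11.35 and 10.99 FPKM against 9.42, 2.73 and 10.89. The 8 mesenchymal markers summed to 51.8, 22.0 and 6.60 FPKM in replicates 2, 3 and 6 and to 186, 191 and 346 in replicates 1, 4 and 5. All 8 were above a mean of 1 FPKM in vB. In the same order of libraries, endothelial markers summed to 23.3, 17.5 and 13.9 FPKM against 45.9, 52.8 and 47.4. Erythroid markers summed to 4666, 5759 and 5871 FPKM against 20964, 45550 and 12418. The neural progenitor markers did not split, at 736, 699 and 777 FPKM against 575, 781 and 628. The part of cell makeup in these levels was not tested.

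Meis2 separated tissues within the face as well as face and brain from limb. In the files it lies at chr2:115861264-116065058 (mm10) with 8 transcripts. MXP had the highest levels, with 38.6, 40.8 and 54.5 FPKM as lowest, median and highest values, and MNP followed with 22.8, 32.4 and 38.6. FNP had 9.39, 12.6 and 15.96 FPKM. The brain tissues were wide, at 13.2, 26.1 and 35.9 FPKM in dB and 8.16, 25.4 and 45.5 in vB. Limb was lowest, at 5.65, 9.70 and 20.0 FPKM.

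FNP was below MNP in Meis2 by 1.21 on the log2 scale (SE 0.30, adjusted p = 0.00642, 2.68% of all genes called in that pair). It was below MXP by 1.68 (SE 0.31, adjusted p = 0.000381 in limma, 2.28% of genes called). FNP was below vB by 0.90, under a fold of 2, and without vB replicate 4 FNP minus vB was −1.19 and called (adjusted p = 0.000379 in limma), which took the Meis2 pairs called from 6 to 7. FNP and limb differed by 0.32 (95% interval −0.29 to 0.93). Between neural tissue and the face as a whole the difference was −0.07, with a 95% interval of −0.47 to 0.33. The face held both the lowest and the highest mean outside limb. Against limb, neural tissue was higher by 1.21 (SE 0.26, adjusted p = 0.000232) and facial tissue by 1.28 (SE 0.25, adjusted p = 0.000275 in limma). The libraries of limb overlapped with those of both. In replicates 4 to 6 alone both differences from limb were not called, at 0.68 and 1.10 (adjusted p = 0.207 and 0.133 in limma), and neither were those of FNP from MNP and MXP. In replicates 1 to 3 alone that of FNP from MNP was −0.94 and not called. A test against a fold of 1.5 called none of these 4 differences.

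The 6 limb libraries were not alike in the Meis genes. Meis1 was at 15.6, 14.7 and 14.0 FPKM in limb replicates 1, 4 and 5 and at 4.00, 4.30 and 5.02 FPKM in replicates 2, 3 and 6. Meis2 was at 20.0, 13.4 and 17.0 FPKM in the first set and at 5.82, 5.65 and 6.03 in the second. Meis3 was at 2.55, 2.40 and 1.85 FPKM and at 1.24, 1.16 and 1.45 FPKM. The 3 Meis genes were thus each higher in replicates 1, 4 and 5 than in 2, 3 and 6. These libraries are not labelled as different groups and no test was made between them. The 2 sets were formed from these values, and the share of all genes that split the same way was not counted. The split is therefore not read as particular to the Meis genes.

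Other limb genes, named after their values were seen, split the same way or the opposite way. Irx3, a TALE factor of the early proximal and anterior limb bud, was at 15.5, 11.1 and 16.6 FPKM in limb replicates 1, 4 and 5 and at 2.42, 2.28 and 5.24 FPKM in 2, 3 and 6. Pkdcc, a secreted tyrosine kinase needed for long bone growth, was at 61.8, 51.9 and 60.9 and at 9.51, 7.01 and 17.4 FPKM. Hoxd13 and Hoxa13, which pattern the hand and foot, were lower where the Meis genes were higher. Hoxd13 was at 103, 52.6 and 123 FPKM in replicates 1, 4 and 5 and at 256, 262 and 214 FPKM in 2, 3 and 6. Hoxa13 was at 27.6, 10.1 and 37.0 and at 58.5, 59.5 and 54.3 FPKM. Hoxa9 and Hoxa11 did not split this way, at 25.7 to 38.9 and 26.2 to 42.6 FPKM. The hindlimb factor Tbx4 (6.70 to 28.6 FPKM) and the forelimb factor Tbx5 (12.8 to 24.5 FPKM) were both present in every limb library. The 8 mesenchymal markers summed to 498 to 678 FPKM in replicates 1, 4 and 5 and to 492 to 775 in 2, 3 and 6. Replicates 2 and 3 were sequenced together and replicates 5 and 6 as well, each in 1 run. Which levels of the limb each pool held is not given in the labels.

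**Figure D3:**
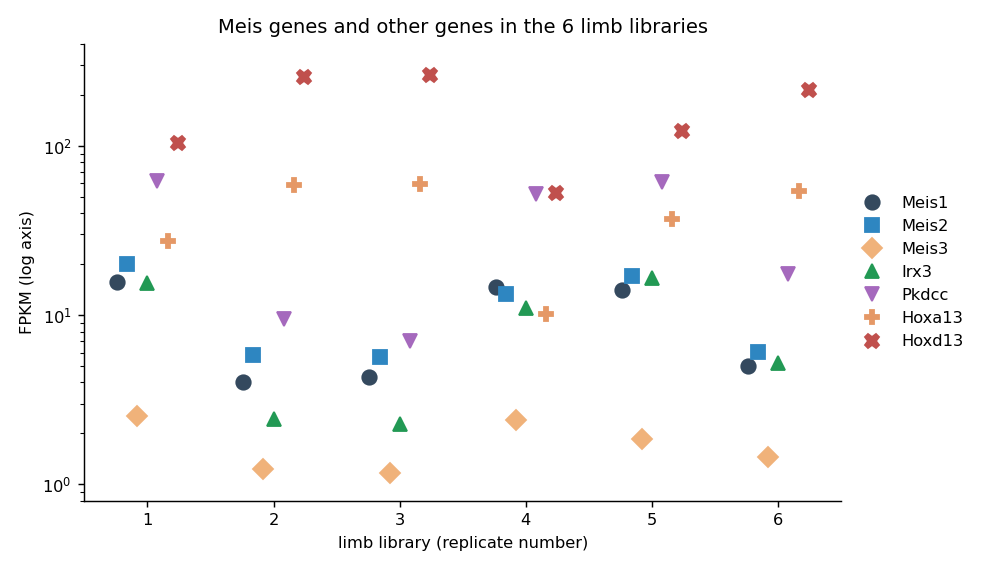
FPKM (log axis) of Meis1, Meis2, Meis3, Irx3, Pkdcc, Hoxa13 and Hoxd13 in the 6 limb libraries, with the replicate number on the x axis, points set side by side for legibility, and no order among replicates. Meis1 is at 14.0 to 15.6 FPKM in replicates 1, 4 and 5 and at 4.00 to 5.02 in the others, while Hoxd13 is at most 123 FPKM in the former and at least 214 in the latter.

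With each limb library left out in turn, the Meis2 difference from limb was called at neural to limb values of 1.06 to 1.40 and facial to limb values of 1.14 to 1.47. Each such comparison keeps at least 2 libraries of each set and so does not test the split among the limb libraries. These alternatives were added after the limb values were seen.

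Meis1 was not called in any tissue pair. In the files it lies at chr11:18880428-19018969 (mm10) with 4 transcripts. MNP had 11.9, 15.7 and 17.7 FPKM as lowest, median and highest values, MXP 9.90, 10.6 and 18.3, and FNP 7.97, 9.51 and 14.3. The values in dB were the most even, at 7.21, 7.99 and 9.14 FPKM. In vB 5 libraries lay between 9.42 and 11.3 FPKM and replicate 4 at 2.73. Most pairs of tissues overlapped in their Meis1 values. Neural tissue was below facial tissue by 0.51 (SE 0.18, adjusted p = 0.0170 in limma), past the adjusted p and under a fold of 2. MNP exceeded dB by 0.80 and vB by 0.72 (adjusted p = 0.0223 and 0.0341 in limma). These were the 2 of 15 pairs past the adjusted p, with 3 at an unadjusted p under 0.05. Without vB replicate 4, the MNP to vB difference was 0.44 and not past it (adjusted p = 0.140 in limma). Neither pair was past it in replicates 1 to 3 or 4 to 6 alone. Neural tissue and limb differed by 0.03 (95% interval −0.46 to 0.52).

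Within the Meis family, the leading gene by mean share was Meis2 in MNP, MXP, dB and limb and Meis3 in FNP and vB. In FNP, dB and vB, however, the mean shares of Meis2 and Meis3 lay within an SD of each other. In limb, Meis1 made up 41.2 ± 4.12% of the summed Meis FPKM (SD, n = 6), Meis2 49.9 ± 3.37% and Meis3 8.91 ± 2.52%. In MXP the shares were 19.1 ± 3.53, 63.6 ± 2.82 and 17.3 ± 2.44% (SD, n = 5), and in MNP 27.3 ± 1.81, 55.8 ± 3.44 and 16.8 ± 2.18% (SD, n = 6). FNP had the most even shares, with 28.3 ± 3.01, 35.2 ± 2.41 and 36.5 ± 4.83% (SD, n = 6). In dB and vB, Meis3 made up 41.2 ± 6.08 and 45.9 ± 8.59% and Meis1 stood at 14.9 ± 1.96 and 14.1 ± 2.60% (SD, n = 6 each). The ratio of Meis2 to Meis1 was 1.25 ± 0.11 in FNP, 1.23 ± 0.18 in limb (SD, n = 6 each) and 3.43 ± 0.70 in MXP (SD, n = 5). Over the 6 limb libraries this ratio ran from 0.908 to 1.45. These shares are descriptions of the levels above and were not tested.

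**Figure D4:**
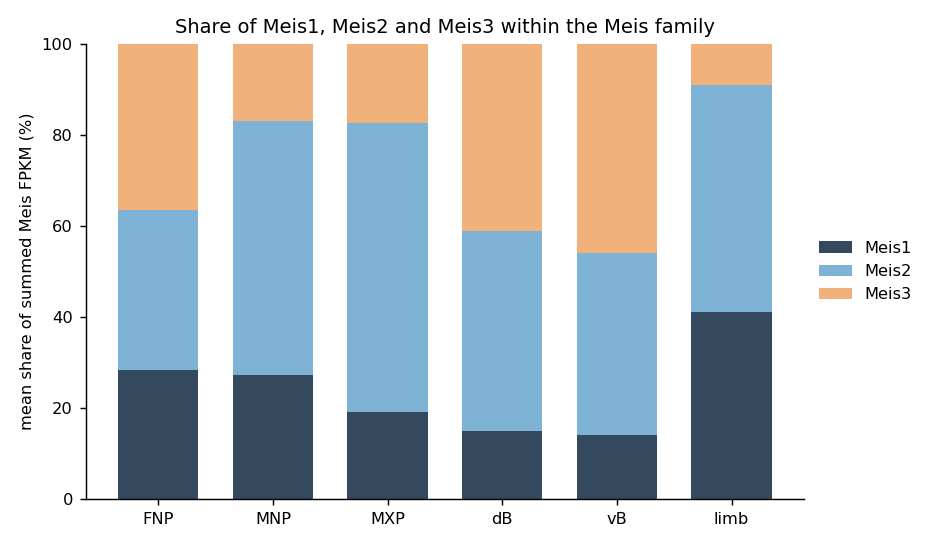
Mean share (%, axis from 0 to 100) of Meis1, Meis2 and Meis3 in their summed FPKM in each tissue, as stacked bars of the tissue means of 6 libraries (5 in MXP). Meis2 takes 63.6% in MXP, Meis3 45.9% in vB and 8.91% in limb, and Meis1 41.2% in limb.

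Pbx2, a broadly expressed Pbx gene, was even across tissues. In the files it lies at chr17:34592471-34597341 (mm10) with 1 transcript. The tissue means ran from 66.0 FPKM in vB to 77.4 in MNP, and 0 of 15 pairs were called, with 0 at an unadjusted p under 0.05. Across the 17 facial libraries its lowest, median and highest values were 66.6, 73.7 and 85.7 FPKM. The 95% interval of the difference between neural and facial tissue was −0.57 to 0.07, that between neural tissue and limb −0.58 to 0.26 and that between facial tissue and limb −0.31 to 0.49, all within a fold of 2. The lowest libraries were vB replicate 4 at 15.6 FPKM, limb replicate 4 at 42.4 and dB replicate 4 at 48.3, and the other libraries lay between 64.7 and 88.1 FPKM. The 5 erythroid markers summed to 45550, 26992 and 32541 FPKM in these 3 libraries, the highest of the vB and of the limb libraries. In dB replicate 1, however, they summed to 36120 FPKM with Pbx2 at 81.1 FPKM. MNP replicate 4, sequenced in the same run as vB and limb replicate 4, had 83.1 FPKM. The part of blood RNA in the low Pbx2 values was not tested. Without vB replicate 4 the neural to limb difference went from −0.16 to 0.03.

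Pbx3 fell between the even Pbx2 and the neural Pbx4. In the files it lies at chr2:34171909-34372036 (mm10) with 3 transcripts. It had 15.9, 32.2 and 41.7 FPKM as lowest, median and highest values in vB and 16.005, 27.7 and 35.1 in dB. In MNP these were 22.3, 24.8 and 30.2 FPKM, in MXP 17.0, 21.3 and 28.9 and in FNP 17.7, 19.3 and 22.9. Limb was lowest, at 13.0, 14.98 and 19.1 FPKM. Both brain minima came from replicate 4, and the neural and limb libraries overlapped. The other neural libraries started at 23.8 FPKM, above every limb library. That separation rests on leaving out the lowest library of each brain tissue and is not counted as a result. The Pbx3 excess over limb was 0.81 in neural tissue (SE 0.15, adjusted p = 2.83e-05 in limma) and 0.50 in facial tissue (SE 0.14, adjusted p = 0.0135 in limma). Neural exceeded facial tissue by 0.31 (SE 0.11, adjusted p = 0.0198 in limma). Each passed the adjusted p at a fold under 2, so 0 of 15 pairs were called (1, vB against limb, without vB replicate 4), with 5 past the adjusted p and 8 at an unadjusted p under 0.05. In replicates 1 to 3 alone the neural to limb difference was 1.09 and called, and in replicates 4 to 6 alone 0.53 and not called. The ratio of Pbx2 to Pbx3 was highest in limb, at 4.74 ± 1.07, and lowest in vB, at 2.12 ± 0.83 (SD, n = 6 each).

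The transcripts listed for Meis1, Meis2 and Pbx3 include forms that differ by the length of an annotated exon, and the exons of that length are shown because they are what the forms would differ by. The tables give transcript lengths and no exons, so each form was tied to an exon by length alone. The 95-base exon of Meis1 (chr11:18883988-18884082, minus strand) and that of Meis2 (chr2:115866810-115866904, minus strand) are the same length, and in GENCODE each holds 56 coding bases before the stop codon. The 113-base exon of Pbx3 (chr2:34176749-34176861, minus strand) is coding throughout. In the Meis lines, capitals mark the bases at which Meis1 and Meis2 differ, and only the coding part is printed.
Meis1, coding part, chr11:18884027-18884082: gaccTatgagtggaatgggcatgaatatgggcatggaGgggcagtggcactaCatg
Meis2, coding part, chr2:115866849-115866904: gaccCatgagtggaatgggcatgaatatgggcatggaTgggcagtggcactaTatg
Pbx3, whole exon, chr2:34176749-34176861: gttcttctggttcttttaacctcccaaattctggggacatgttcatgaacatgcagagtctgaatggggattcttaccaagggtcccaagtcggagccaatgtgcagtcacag

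The coding parts of the Meis1 and Meis2 exons were identical at 53 of 56 bases (94.6%), more than the homeobox stretch. Of the Meis1 transcripts of 3441 and 3346 bases, the longer form made up 95.4 ± 4.13% (SD, n = 35), and over the tissues the means ran from 92.1% in MXP to 99.3% in vB. Of the 4 main Meis2 transcripts (4621 to 4737 bases), the 2 forms with 95 more bases made up 65.8 ± 8.37% (SD, n = 35), from 54.5 ± 7.43% in dB to 70.8 ± 7.29% in MNP (SD, n = 6 each). The lowest Meis1 library was at 82.7% and the highest Meis2 library at 83.4%, the next Meis2 library being at 78.5%. The 2 Meis2 forms with a further 21 bases made up 42.9 ± 4.89% (SD, n = 35). Of the Pbx3 forms of 2393 and 2280 bases, the longer made up 58.1 ± 7.66% (SD, n = 35), with 63.6 ± 8.65% in vB and 52.4 ± 11.4% in limb (SD, n = 6 each). The limb libraries ranged from 38.0 to 66.3%.

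**Figure D5:**
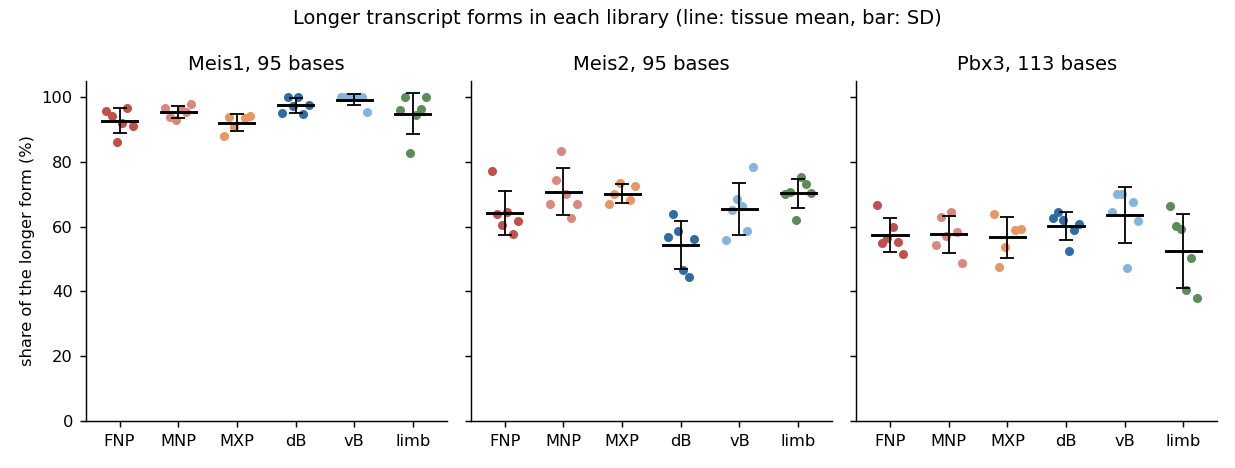
Share (%, axis from 0) of the longer form among the paired forms of Meis1 (95 bases), Meis2 (95 bases) and Pbx3 (113 bases) in each library, by tissue, with a line for the mean and bars for the SD. Meis1 lies at 82.7% or more throughout, Meis2 between 44.5 and 83.4% with dB lowest, and Pbx3 between 38.0 and 70.2%.

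The share of a member's most abundant transcript in its summed FPKM was compared between neural, facial and limb tissue for the 5 members with several transcripts, with a two-sided permutation test on libraries. The test took libraries as independent, with no term for tissue, replicate number or run. Libraries of the same number tended to deviate together, with a mean correlation of 0.32 over 85 pairs. The p-values may therefore be too small. Of 15 comparisons adjusted together, 1 passed. The 3441-base transcript of Meis1 made up 94.4 ± 3.23% in neural (SD, n = 12) and 88.8 ± 3.61% in facial tissue (SD, n = 17), a difference of 5.64 percentage points (permutation p = 8.00e-05, adjusted p = 0.00120). For Meis2 the 4716-base transcript made up 30.7 ± 7.25% in neural and 37.8 ± 6.49% in facial tissue (permutation test, adjusted p = 0.0564). In limb it was 39.0 ± 3.77% (SD, n = 6, exact permutation test against neural tissue, adjusted p = 0.0564). For Pbx3 the longer form made up 61.7 ± 6.72% in neural, 57.2 ± 5.38% in facial tissue and 52.2 ± 11.4% in limb (exact and permutation tests against neural tissue, adjusted p = 0.128 in both). Leaving out single libraries moved the number that passed from 1 to 4: without vB replicate 4 and without limb replicate 3 it was 4, and without vB replicate 6 it was 3. In replicates 4 to 6 alone it was 0. The most abundant Pbx4 transcript was listed at or near 0% in at least 1 library of MNP, MXP and limb, where Pbx4 itself had means of 1.20 to 1.46 FPKM. Shares of near-identical transcripts are model estimates and carry no interval in the tables.

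The genes whose pattern was most like each member over the 35 libraries were found by Pearson's r of log2(FPKM + 1), given as a description, since the libraries share tissues and runs. For Meis2, 2 of the 3 lie beside it. AK012325 (r = 0.92) lies at chr2:116066218-116067361 in the files, 1159 bases past the higher-coordinate end of Meis2, and 2810405F15Rik (r = 0.79) at chr2:116074548-116076096, 9489 bases past it. AK012325 had its highest mean in MXP, at 5.46 FPKM, and 4.12 in MNP, 1.51 in FNP and 1.44 in limb, the same order as Meis2 in these tissues. The third was Gria1, a glutamate receptor subunit (r = 0.80), with means of 0.08 FPKM in FNP and 1.53 in vB.

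Meis3 was most like 5730528L13Rik (r = 0.96), the axon growth gene Fez1 (r = 0.94) and Nr2f1, an orphan nuclear receptor of the forebrain (r = 0.93). Nr2f1 had means of 109 FPKM in vB, 102 in dB, 62.8 in MNP and 6.61 in limb. Pbx4 was most like Gpm6b, a membrane protein of neurons and glia (r = 0.97), Scrn1 (r = 0.97) and the neuronal gene Nsg2 (r = 0.97), which had 96.4 FPKM in vB and 1.39 in MXP. Pbx3 was most like the neuronal growth suppressor Ndn (r = 0.87), Psd (r = 0.86) and Tmem108 (r = 0.86). Meis1 had no gene above r = 0.75, with Pkdcc (r = 0.75), AK014974 (r = 0.71) and Meis2 (r = 0.69) as the nearest. Pbx2 was most like Chmp4b (r = 0.97), Fxr2 (r = 0.96) and Klhdc3 (r = 0.96), and without vB replicate 4 these fell to 0.87, 0.85 and 0.83. Between members, r was highest for Meis3 with Pbx3 (0.71), Meis2 with Pbx3 (0.71) and Meis3 with Pbx4 (0.70).

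Of the 11 other TALE genes (Irx1 to Irx6, Mkx, Pknox1, Pknox2, Tgif1 and Tgif2), 2 were called higher and 3 lower in neural than in facial tissue. Irx2 was higher by 1.32 (SE 0.25, adjusted p = 2.70e-05), while Irx4 was lower (−1.26, SE 0.09, adjusted p = 2.16e-14) and the repressor Tgif1 likewise (−1.18, SE 0.14, adjusted p = 4.47e-09 in limma). Facial against limb 3 were higher and 0 lower, with Irx3 at 1.98, Irx5 at 1.85 and Irx1 at 1.20. Neural against limb 3 were higher and 2 lower, with Irx1 at 2.30, Irx2 at 1.56 and the tendon factor Mkx at −1.39. Their median was −0.20, 0.31 and 0.24 for neural against facial, neural against limb and facial against limb. Pknox1, Pknox2, close relatives of Meis, and Tgif2 were not called in any of the 3. The shares of all genes called in either direction were 11.3, 12.4 and 2.62% for neural against facial, neural against limb and facial against limb.

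Of the 39 Hox genes, which encode partners of Pbx and Meis, 32 were tested, 7 being under the filter. Against limb, 31 were lower in neural and 31 lower in facial tissue, with medians of −2.52 and −2.50. Only genes that reach 1 FPKM in some tissue were tested, so for Hox genes the filter was passed mostly through limb and the count is a description. The largest differences were those of Hoxd13, with a mean of 168 FPKM in limb, Hoxa10 with 124 and Hoxd11 with 71.2, against tissue means of at most 0.04 FPKM outside limb. Neural against facial, 0 of 32 were called in limma, with 4 at an unadjusted p under 0.05, where 11.3% of all genes were called. In both tissues the Hox means were low, the highest being Hoxa2 in facial tissue at 0.56 FPKM. With a pseudocount of 1 a fold of 2 was hardly within reach, so no conclusion is drawn from this count.

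Of 17 tested genes of retinoic acid synthesis, breakdown and response (18 listed), a pathway known to raise Meis1 and Meis2 in the limb, 12 were lower in neural than in facial tissue and 0 higher, with a median of −1.35. Of all genes, 4.64% were called lower and 6.64% higher in that comparison, with a median of −0.02. The receptor Rarg (−3.37), the degrading enzyme Cyp26b1 (−3.33) and the synthesizing enzyme Aldh1a2 (−3.22) differed most. Neural against limb, 7 were lower and 0 higher, led by Cyp26b1 (−4.83). Of the 8 mesenchymal markers, 7 were lower in neural than in facial tissue (median −2.81) and 6 lower in neural tissue than in limb (median −2.83), and their part in the retinoic acid counts was not tested. Facial against limb, 5 were higher and 1 lower, with Aldh1a3 (1.90), the receptor and target Rarb (1.90) and Cyp26b1 (−1.50) at the front. Of 10 cofactors and modifiers of Pbx, Hox or Meis activity (Pbxip1, corepressors, deacetylases and coactivators), 0 were called in limma in any of the 3 comparisons, with 5, 3 and 1 at an unadjusted p under 0.05 and medians of −0.32, −0.15 and 0.16. Among 8 genes described in earlier work as targets of Pbx or Meis, 2 were higher and 4 lower in neural than in facial tissue, with Pax6 at 4.24, Trp63 at −3.29 and Wnt9b at −2.67. Against limb, 3 were higher and 3 lower in neural tissue, with Hand2 at −6.33 and Pax6 at 4.94. Facial against limb 1 was higher, Wnt9b (1.89), and 1 lower, Hand2 (−3.90). These lists also hold genes of surface epithelium and of neural progenitors, and the 6 epithelial markers were all lower in neural tissue in both comparisons. Of all genes, 11.3% were called in either direction in neural against facial tissue, 12.4% in neural tissue against limb and 2.62% in facial tissue against limb.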

How the data were processed

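For each library the authors deposited Cufflinks estimates per transcript on mm10, as FPKM and, per the file headers, a coverage signal. Reads were paired-end, of 75 bases. Bowtie2, DESeq2 and mm10 stand in the submitters' notes, without versions. Of 59120 transcripts, 65 with no numeric length were left out. FPKM was summed per gene symbol. A limma 3.58.1 model (R 4.3.3, trend and robust), with 1 mean per tissue, was applied to log2(FPKM + 1) of 13934 genes that averaged 1 FPKM or more in a tissue. Category contrasts compared means of tissue means, and p-values were Benjamini-Hochberg adjusted per contrast. Transcript shares were compared by exact permutation or, with 10 or more libraries per group, 100000 resamples (SciPy 1.17.1), adjusted over 15 comparisons. Both steps were tested on simulated data.

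The members, gene lists and markers were chosen with earlier results of these data known. Genes named were the members, the 3 most like each, and up to 3 called genes per list and category comparison with the largest difference. Irx3, Pkdcc, Hoxa9, Hoxa11, Hoxa13, Hoxd13, Tbx4 and Tbx5 in the limb libraries were named after their values were seen. Alternatives were a pseudocount of 0.1, no filter, quantile normalization, replicate number or sequencing run as a term, replicates 1 to 3 or 4 to 6 alone, a test against a fold of 1.5, adjustment over 18 contrasts, and single MXP, vB and limb libraries left out. Exons came from GENCODE. Strand use in counting was not stated, so Meis1 and Pbx3 cannot be told from antisense genes that overlap them. Gm37818, 2900018N21Rik and 2610001A08Rik also lie within Meis1, on its own strand. In GENCODE the end of Gpsm3 overlaps Pbx2 on the same strand. It stops at chr17:34591754, before the Pbx2 transcript in the files starts at 34592471. Some single genes are left out of this account.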

Additional observations from a re-analysis of the deposited data

Results flagged for a closer look

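In 5 of 36 groups of a member and a tissue, 1 library lay farther from the rest than Dixon's test allows at 95%. Chance flags about 1 in 20 such groups. In vB replicate 4, Meis1 was at 2.73 FPKM, with 9.42 to 11.3 in the other vB libraries, and Pbx2 at 15.6 FPKM, with 64.7 to 88.1 in the others. Pbx2 was also low in limb replicate 4, at 42.4 FPKM, with 76.1 to 85.1 in the other limb libraries. In MXP replicate 5 Pbx2 was at 85.7 FPKM, with 73.6 to 73.8 in the other 4, a group that was unusually even. In MXP replicate 2 Meis2 was at 54.5 FPKM, with 38.6 to 42.5 in the others.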

How the results depend on the processing

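The number of members called was 2, 3 and 2 (neural against facial, neural against limb, facial against limb), with 23 pair comparisons. With each MXP, vB or limb library left out these stayed at 2, 3 and 2, with 22 to 25 pair comparisons. In replicates 4 to 6 alone they were 1, 2 and 1, with 14 pair comparisons, and Meis3 neural against facial was 0.95, under a fold of 2. In replicates 1 to 3 alone they were 2, 4 and 2, with 27 pair comparisons. A test against a fold of 1.5 left 2, 2 and 1, with 18 pair comparisons. The transcript shares that passed, 1 of 15, became 0 in replicates 4 to 6 alone and 1 to 4 with single libraries left out: 4 without vB replicate 4, 3 without vB replicate 6 and 4 without limb replicate 3. The cause was not tested.

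The replicate numbers did not meet the rule for pairing, which asks a correlation of deviations over 0.1 in every pair of libraries with the same number. Of 85 such pairs 78 were over 0.1, with a mean of 0.32 and a lowest value of 0.008, against a mean of −0.063 and 57 of 425 over 0.1 between numbers. Numbers and sequencing runs largely coincided, with all 6 libraries numbered 1 in 1 run and all 6 numbered 3 in another, so they cannot be told apart. Transcripts under 200 bases held 19.1 to 39.2% of the FPKM in the 6 libraries numbered 1 and at most 10.3% elsewhere. With a replicate block the counts were 2, 3, 2 and 23, and Pbx2 in FNP against MXP was 0.082 in place of −0.034.

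No called difference changed sign. Among those not called, in replicates 1 to 3 alone Meis1 in MNP against MXP was −0.073, Meis2 neural against facial 0.29, Pbx2 neural against facial 0.0092 and Pbx2 facial against limb −0.056. In replicates 4 to 6 alone Meis1 neural against limb was −0.39, Meis1 in dB against vB 0.16, Meis2 in dB against vB 0.15, Pbx2 in MNP against MXP −0.0096 and Pbx3 neural against facial −0.011. With sequencing run as a term Meis1 neural against limb was −0.067. Pbx4 facial against limb was −0.051 under quantile normalization and −0.015 without FNP replicates 4 and 5 and MXP replicate 5.

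With single libraries left out, Meis1 neural against limb ran from −0.15 to 0.20, Meis2 neural against facial from −0.16 to 0.075 and Meis2 in dB against vB from −0.31 to 0.16. Pbx2 ran from −0.30 to 0.029 neural against limb, −0.053 to 0.15 facial against limb, −0.045 to 0.0088 in FNP against MXP and −0.13 to 0.36 in dB against vB. Pbx4 in dB against vB ran from −0.092 to 0.036. Depth is not given as counts, so counting error is unknown.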
